A study of Arabidopsis thaliana with 18 samples.

Results

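The imbibition course of mpk8 seeds was followed in 6 of the 18 libraries of the series, 3 from dry seeds and 3 from seeds kept with water for 24 h. The mpk8 line of Arabidopsis thaliana carries, per the labels, a gene knock out of MPK8, a mitogen-activated protein kinase. The labels give no allele and do not say whether the line is a single isolate. Members are all loci in the counts, so 33602 loci were examined and 18061 of them, with enough read pairs in the 6 groups of the series, were tested. Of the loci, 23138 had at least 1 pair in an mpk8 library.

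Plants grew on soil at 21 °C, and RNA was taken from whole seeds, either dry or dormant and imbibed on filter paper in darkness at 25 °C. The course of wild-type seeds, with 3 dry and 3 imbibed libraries made in the same way, serves as the comparison, and no library is shared between the 2 courses. The question posed by the labels concerns the release of dormancy, so the comparison asks which transcripts the mpk8 line gains and loses in the first day of water uptake. The labels call replicates biological without naming seed lots or plants, so p values measure the spread between these libraries.

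A dry seed holds long-lived messenger RNA left from maturation, which codes for storage proteins, oil body proteins, late embryogenesis abundant (LEA) proteins and chaperones. On water uptake this store is degraded while genes of ribosomes, then of cell wall loosening and DNA synthesis, are switched on. Dormancy, kept by abscisic acid (ABA) and by DOG1 and opposed by gibberellin, stops a seed from completing this course by germination.

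The mpk8 libraries held 16746225 to 21087747 counted read pairs, and the wild-type libraries 12170793 to 16979217. Levels are CPM (read pairs scaled to a common library size) after TMM scaling, a correction for library composition, and a call is an edgeR quasi-likelihood test with a Benjamini-Hochberg adjusted p under 0.05 over all genes tested. Without TMM, under scaling by library totals, the log2 fold change of every gene moved up by about 0.82 in the mpk8 course, so all changes here are relative to that shift. Over all genes tested the median log2 fold change was 0.15 after TMM and 0.97 under library totals. MPK8 (annotated as ATMPK8, AT1G18150) stood at 3.85, 4.61 and 3.66 CPM in dry mpk8 seeds and at 4.05, 4.77 and 4.12 CPM after imbibition. All 6 values lay below the lowest wild-type value of 11 CPM (log2 -1.49, SE 0.125, in dry and -1.44, SE 0.104, in imbibed seeds, both called), and the level did not change detectably during the course (0.09, SE 0.129, adjusted p = 0.563), apart from a called rise of ATMPK8 by 0.91 under library totals. The transcript was thus reduced and not absent, and counts per gene model do not show which part of the gene was read.

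Markers of the embryo, chiefly storage and oil body genes, summed to 148000 to 151000 CPM in dry and 98500 to 100000 CPM in imbibed mpk8 seeds, with all 9 detected in each library. Leaf markers summed to 29.2 to 35.1 CPM and then 103 to 116 CPM, and seed coat markers to 225 to 237 CPM and then 512 to 573 CPM, although of the 5 seed coat markers tested 2 rose and 3 fell (median -0.51). In whole seeds, fewer cells of a type and less RNA per cell cannot be told apart.

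Promoters of genes from the storage, LEA and ribosomal protein lists are shown first, because these lists differ in the short motifs they hold. The windows are the 250 bases before the annotated gene start in TAIR10.1, read with the annotation of that build and credited to RefSeq, printed 5′ to 3′ on the strand of the gene. Capitals mark matches on either strand, with overlaps counted, to the ABA-response core ACGTG, the RY element CATGCA of seed maturation genes, the site II motif TGGGCC of growth-related genes, the telo-box AAACCCTA or the heat shock element GAANNTTC.
CRA1, a 12S cruciferin storage protein, chr5:17758337-17758586, minus strand: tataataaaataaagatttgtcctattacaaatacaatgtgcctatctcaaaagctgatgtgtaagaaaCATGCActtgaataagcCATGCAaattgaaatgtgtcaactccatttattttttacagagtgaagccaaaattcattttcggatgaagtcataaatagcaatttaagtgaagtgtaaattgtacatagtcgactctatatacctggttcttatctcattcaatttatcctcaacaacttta
SESA3, a 2S albumin storage protein, chr4:13611546-13611795, plus strand: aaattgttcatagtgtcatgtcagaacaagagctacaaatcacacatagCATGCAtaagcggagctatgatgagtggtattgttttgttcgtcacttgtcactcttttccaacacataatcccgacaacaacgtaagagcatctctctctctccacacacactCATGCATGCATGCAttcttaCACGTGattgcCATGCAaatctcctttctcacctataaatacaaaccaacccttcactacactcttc
RAB18 (AT5G66400), a dehydrin of the LEA group, chr5:26519448-26519697, minus strand: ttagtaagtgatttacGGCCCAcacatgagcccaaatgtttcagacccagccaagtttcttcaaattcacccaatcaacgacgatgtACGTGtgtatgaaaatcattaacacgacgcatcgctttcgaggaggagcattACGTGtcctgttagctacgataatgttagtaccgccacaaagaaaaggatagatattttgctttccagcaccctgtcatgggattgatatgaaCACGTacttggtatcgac
EMB3010, a protein of the small ribosomal subunit, chr5:3260255-3260504, minus strand: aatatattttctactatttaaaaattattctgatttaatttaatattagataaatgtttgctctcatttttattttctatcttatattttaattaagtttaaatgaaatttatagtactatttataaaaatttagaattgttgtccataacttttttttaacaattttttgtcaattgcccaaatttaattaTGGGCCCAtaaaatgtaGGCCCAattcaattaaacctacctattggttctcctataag
The RY element was in 9 of 10 storage gene promoters and in all 8 of the oil body genes, against 8.51% of 26706 promoters of this length. The ABA-response core was in 60% of storage, 62.5% of oil body and 70% of LEA promoters, against 23.1% of all. Site II was in 64.3% of the 28 ribosomal protein promoters and 61.1% of the 18 DNA replication promoters, and also in 64.3% of the 14 small heat shock promoters, against 13.9% of all. The heat shock element was in 28.6% of small heat shock promoters and in none of the 10 large chaperone promoters, against 9.47% of all, and the telo-box in 14.3% of ribosomal protein promoters against 4.44%. The sets of genes called in the mpk8 course differed far less than these lists. Site II was in 19.3% of promoters of genes called higher, 16.7% of those called lower and 18% of all tested genes. In the same order the RY element was in 6.96%, 7.7% and 7.37%, and the ABA-response core in 21%, 26.6% and 23.5%. A match describes the letters only and is not evidence of binding.

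In mpk8 seeds 15017 of the 18061 genes tested were called (83.1%), 8022 higher at 24 h (44.4%) and 6995 lower (38.7%). Counts of a list's members are to be read against these shares, since most genes of the seed were called. Of the rises, 2898 were under 2-fold, 2312 from 2-fold to under 4-fold, 1836 from 4-fold to under 16-fold and 976 at 16-fold or more. Of the falls, 3206, 2196, 1070 and 523 genes fell in the same classes. The 3 imbibed libraries lay all above or all below the 3 dry ones for 85.2% of genes. In 455 called genes no pair was counted in dry mpk8 seeds, and in 196 called genes none after imbibition. Scaling by library totals made 77.5% of calls higher instead of 53.4%.

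**Figure D1:**
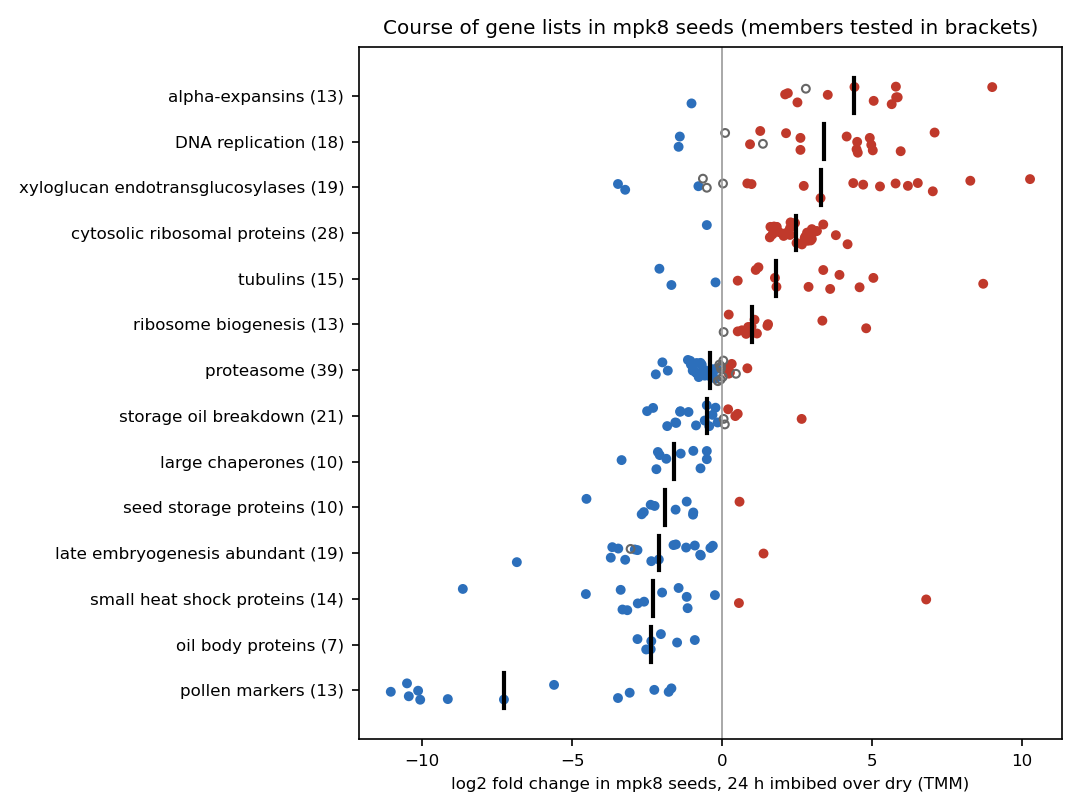
Each point is a gene of a list, placed by its log2 fold change from dry to 24 h imbibed mpk8 seeds (x axis), with called rises in red, called falls in blue and genes not called as open circles. Black bars are list medians, from -7.27 for pollen markers to 4.41 for alpha-expansins, and the number of tested members stands beside each list name.

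Messages for storage reserves took large shares of the pairs of dry seeds, and 9 of the 10 seed storage genes fell in mpk8 seeds while 1 rose. Their median log2 fold change was -1.9, against 0.15 over all genes, and under library totals 7 fell with a median of -1.08. CRA1 (AT5G44120), the exception, was at 40200, 39100 and 38900 CPM in dry seeds and at 59900, 58500 and 57900 CPM at 24 h. Every imbibed value was above every dry one, a 1.49-fold rise (log2 0.58, SE 0.135, adjusted p = 0.00046). Its share of all counted pairs went from between 2.76% and 2.85% to between 7.30% and 7.52%, the highest of any gene in each imbibed mpk8 library. In wild type CRA1 fell from a mean of 41700 to 25900 CPM (log2 -0.69), and the difference between the courses was called (1.27, SE 0.191, adjusted p = 1.9e-05). Wild-type CRA1 nevertheless gained in share of raw pairs, to between 3.74% and 4.40%, so its fall there rests on TMM (0.40 under library totals).

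SESA3, a 2S albumin, was at 23400, 21800 and 22000 CPM in dry mpk8 seeds and at 4140, 4350 and 4380 CPM at 24 h. The groups lay 5.22-fold apart (log2 -2.38, SE 0.116, adjusted p = 4.1e-15), while imbibed wild-type libraries held only 1990 to 2420 CPM. CRU3, the cruciferin with the most pairs in dry seeds, went from 53800, 50800 and 51100 CPM to 26500, 26400 and 26600 CPM (log2 -0.97, SE 0.143), a fall of under 2-fold where the wild-type log2 fold change was -2.29. Under library totals the CRU3 change was -0.15 and not called (adjusted p = 0.11). The strongest fall of the list was that of AT1G03890, a cupin family protein, at log2 -4.52 (SE 0.099). The difference of courses is the mpk8 log2 fold change minus the wild-type one, and over all genes it was called for 7052 (39%), more positive in mpk8 for 4336 (24%) and more negative for 2716 (15%). Under library totals these were 1645 and 4572 genes, so 26.5% instead of 61.5% of the called differences were positive, and the differences of single genes moved down by about 0.27. All 10 storage genes had a more positive course in mpk8, with a median difference of 1.19, and 0.93 under library totals. High storage messages at 24 h were not particular to mpk8. In the imbibed libraries of the third line, labelled tcp14, CRA1 was also the top gene, with 7.49% to 9.28% of pairs. Embryo markers there summed to 98100 to 142000 CPM, beside 98500 to 100000 CPM in mpk8 and 39300 to 48000 CPM in wild type. In dry seeds the log2 ratio of mpk8 to wild type was -0.09 for CRU3 (SE 0.142, adjusted p = 0.822), and SESA1 was lower in mpk8 (-0.35, SE 0.0912, adjusted p = 0.0392), while imbibed levels were higher by 1.23 (SE 0.144) and 0.96 (SE 0.0929).

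Oil body proteins coat the droplets of seed oil. All 7 tested genes of the 8 in the list fell (median -2.36), 6 of them also under library totals. OLEO1, an oleosin, was at 17400, 18200 and 17900 CPM in dry seeds and 4330, 4360 and 4330 CPM at 24 h (log2 -2.04, SE 0.114, adjusted p = 5.7e-14). The 3 imbibed values nearly coincided, 4.1-fold below the dry mean. OLEO4 fell further, at log2 -2.82 (SE 0.113). All 7 differences from wild type were called as smaller falls in mpk8 (median 0.75, and 0.48 under library totals).

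LEA proteins protect cell structures during drying. Of 19 tested members 17 fell, 1 rose and 1 was not called (median -2.11), with 12 lower and 3 higher under library totals. RAB18, whose promoter is shown above, held 3.72% to 3.88% of all pairs of the dry mpk8 libraries, at 52500, 54800 and 54100 CPM, and stood at 4970, 4890 and 4790 CPM at 24 h. This was an 11-fold fall (log2 -3.46, SE 0.14, adjusted p = 1.1e-16), against a wild-type fall to 2010 to 2600 CPM. LTI30, another dehydrin, fell from 1370, 1370 and 1360 CPM to 11.8, 10.6 and 13.4 CPM (log2 -6.84, SE 0.0825), the strongest fall of the list. LEA7 and AT3G15670 fell by 3.71 and 3.66 on the log2 scale. SAG21, a LEA protein known from senescing leaves, was the one that rose, from 17.4, 24.7 and 18.4 CPM to 47.7, 53.2 and 56.6 CPM (log2 1.38, SE 0.107), and it rose less than in wild type (difference -0.70, SE 0.149, adjusted p = 0.00063). Of the list 15 members had a more positive and 3 a more negative course than in wild type.

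Chaperones of the dry seed followed the same direction. All 10 large chaperones fell (median -1.62), although 2 of them, ROF1 and CLPB3, turned to called rises under library totals. HSP101, which dissolves protein aggregates, was at 1210, 1010 and 1030 CPM and then at 272, 237 and 225 CPM (log2 -2.14, SE 0.127, adjusted p = 1.8e-13). The imbibed values were all above those of wild type, at 76.0, 92.5 and 71.7 CPM, and the difference of courses was 1.46 (SE 0.175, adjusted p = 1.1e-06). Hsp70b fell by 3.35, HSP70 by 2.19 and HSP90.1 by 2.08 on the log2 scale. For 9 of the 10 the course was more positive than in wild type (median difference 1.15, and 0.88 under library totals).

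Among the 14 small heat shock proteins, which hold unfolded proteins in solution, 12 fell and 2 rose (median -2.3). HSP17.4 went from 5730, 5380 and 5230 CPM to 552, 482 and 537 CPM (log2 -3.38, SE 0.115, adjusted p = 4.6e-18). Wild-type seeds kept 153 to 195 CPM at 24 h, and the difference was 1.51 (SE 0.151, adjusted p = 1.3e-07). HSP18.2 was at 2.04, 3.25 and 3.25 CPM in dry seeds and had no pair at 24 h. Set against a floor of 3 pairs over the imbibed group, as for every bound on a fold here, it was at least 67.27-fold lower. Its wild-type imbibed libraries read 9.16, 0 and 0.148 CPM, so the called difference of -9.67 (adjusted p = 0.0184) rested on wild-type 24 h replicate 1, and without it the value was -4.53 and not called. Of the others, 10 had a more positive course in mpk8. Heat stress factors, which drive these genes, gave 10 falls and 5 rises in 17 tested, and 7 of each under library totals. HSFA9, the factor of developing seeds, fell from 501, 489 and 484 CPM to 63.4, 55.5 and 52.7 CPM (log2 -3.10, SE 0.0713), less far than in wild type (difference 1.14, SE 0.0986, adjusted p = 1.9e-08). HSFA3, named after its values were seen because its difference had the other sign (-2.95, SE 0.741, adjusted p = 0.00293), was under 1 CPM in all 6 libraries.

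**Figure D2:**
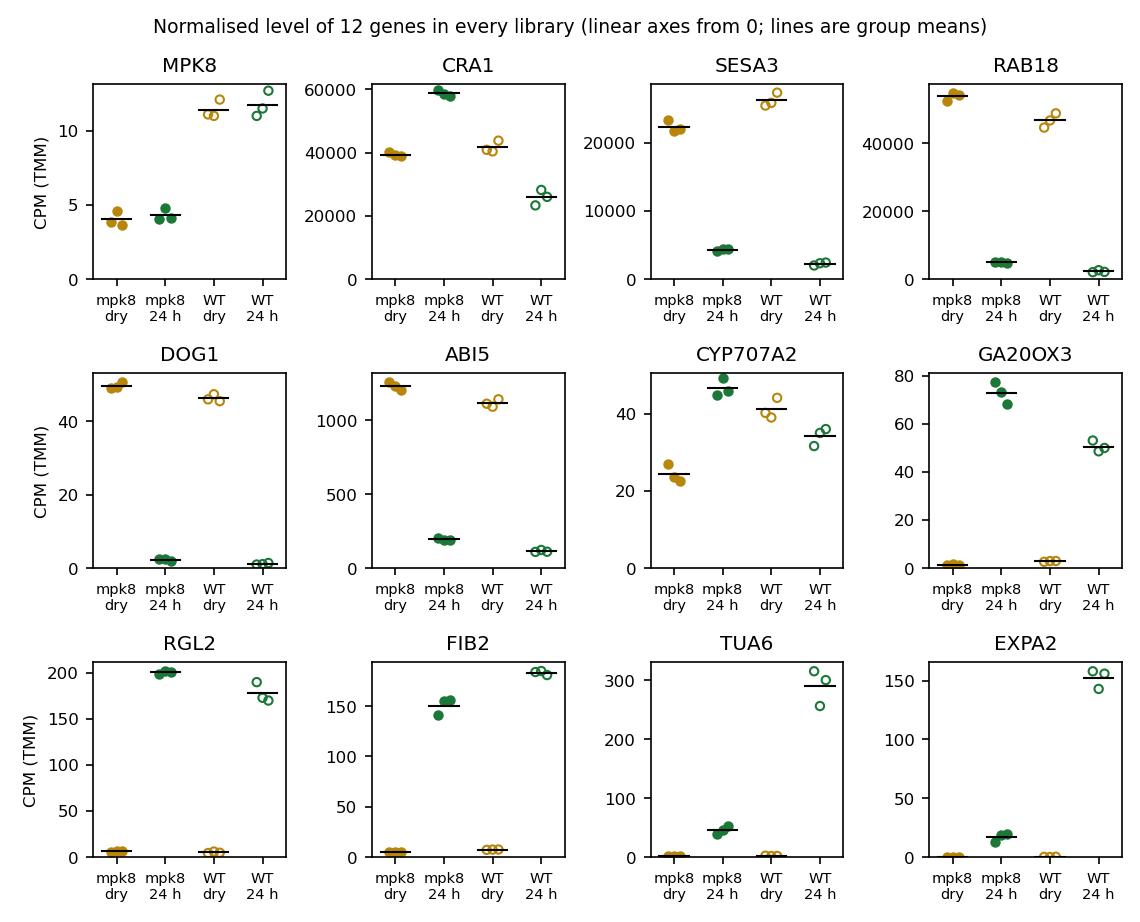
Normalised level (CPM after TMM, linear axis from 0) of 12 genes in the 3 libraries of each group, mpk8 as filled and wild type as open points, with group means as lines. CRA1 and CYP707A2 rise in mpk8 and fall in wild type on this scale (both rise in both genotypes under library totals), and TUA6 and EXPA2 reach far lower imbibed levels in mpk8 (39.3 to 53.0 and 13.1 to 19.9 CPM) than in wild type.

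Storage oil breakdown, by lipases, peroxisomal beta-oxidation and the glyoxylate cycle, feeds the seedling before it can photosynthesise. Of 21 genes 15 fell and 4 rose (median -0.51), but under library totals 12 rose and 8 fell (median 0.31) and 6 genes turned from a called change in one direction to the other, so the direction of this list rests on the scaling. ICL, isocitrate lyase of the glyoxylate cycle, was at 8590, 8670 and 8380 CPM dry and 8850, 9350 and 9020 CPM at 24 h, a change that was not called (0.09, SE 0.0853, adjusted p = 0.349). It was called as a rise of 0.91 under library totals (adjusted p = 1.07e-13) and of 0.08 with the replicate block (adjusted p = 0.0494). CSY2, peroxisomal citrate synthase, fell from 58.6, 62.1 and 56.7 CPM to 12, 12.3 and 11.7 CPM (log2 -2.30, SE 0.074), while imbibed wild-type libraries held 25.2 to 27.4 CPM. Its difference was -1.30 (SE 0.101, adjusted p = 5.5e-09). ACX1 and ACX3, acyl-CoA oxidases, fell by 2.50 and 1.83, and PMDH2, a peroxisomal malate dehydrogenase, rose by 2.65 (SE 0.285). Unlike the storage genes, 14 members had a more negative course than in wild type and 2 a more positive one, and under library totals 17 and 0.

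The proteasome degrades marked proteins. Of its 39 subunit genes 25 fell and 6 rose (median -0.41), yet 24 rose and 6 fell under library totals (median 0.42), with 11 genes called in opposite directions by the scalings. RPT3, an ATPase of the regulatory particle, fell under both, from 463, 435 and 407 CPM to 92.9, 92.2 and 97.1 CPM (log2 -2.21, SE 0.0573, adjusted p = 2.6e-20). RPN10 and RPT1A fell by 1.99 and 1.81. The difference from wild type was more negative for 30 subunits and more positive for none, with a median of -0.35, and for 35 subunits under library totals. PBB2, a subunit of the proteolytic core named after its values were seen, had one of the widest gaps, at 28.3, 27.5 and 28.5 CPM dry and 14, 14.2 and 14.6 CPM at 24 h, where wild type kept 24.0 to 28.0 CPM. Its mpk8 fall was not called under library totals (-0.15).

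Genes of the cytosolic ribosome rose together. Of 28 tested members 27 rose and 1 fell (median 2.45, and 3.28 under library totals). RPL24A went from 10.1, 7.40 and 7.65 CPM to 110, 116 and 122 CPM (log2 3.79, SE 0.0912, adjusted p = 6.7e-21). EMB3010, whose promoter holds site II motifs, went from 81.9, 78.3 and 70.2 CPM to 376, 374 and 370 CPM, a 4.86-fold rise (log2 2.28, SE 0.0609). The largest rise was that of RPL10B at log2 4.18 (SE 0.169), and RPL16B and RPS15 rose by 3.37 and 3.16. SAG24, a second gene for the L10 protein, fell from 292, 291 and 286 CPM to 202, 203 and 206 CPM (log2 -0.51, SE 0.0546), but rose under library totals. Members of such families share sequence, and pairs with several equal hits were removed, so levels of near-identical copies are uncertain. The rise was smaller than in wild type for 16 of the 28 and larger for none, with a median difference of -0.27, and for 25 with a median of -0.54 under library totals.

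Ribosome assembly factors gave 12 rises and no fall in 13 genes (median 0.98). FIB2, a fibrillarin that guides methylation of ribosomal RNA, rose 27.9-fold, from 5.34, 5.36 and 5.45 CPM to 141, 155 and 156 CPM (log2 4.80, SE 0.0679). NAP57, which modifies uridine in ribosomal RNA, went from 52.9, 55.1 and 48.2 CPM to 537, 547 and 500 CPM (log2 3.34, SE 0.0702) and rose further than in wild type (difference 0.69, SE 0.0946, adjusted p = 6.1e-06). NOP56, of the same kind of particle as FIB2, rose less than in wild type (1.51 against 1.87, difference -0.37, SE 0.0697). In this list 6 differences were more positive and 1 more negative, so the ribosomal proteins and their assembly factors did not share a sign, but under library totals the counts were 1 and 1.

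Most DNA synthesis genes rose. Of 18 tested, 3 without a pair in dry mpk8 seeds, 14 rose and 2 fell (median 3.38, against 5.82 in wild type), and 9 rose less or fell further than in wild type while none went the other way. MCM2, of the helicase that opens DNA for copying, had 0.0785, 0 and 0.0814 CPM dry and 3.18, 4.38 and 3.46 CPM at 24 h (log2 5.95, SE 0.535), where imbibed wild type held 19.1 to 22.4 CPM. PCNA2, the sliding clamp of DNA polymerase, rose from 0.942, 0.755 and 1.30 CPM to 6.88, 6.18 and 5.21 CPM (log2 2.61, SE 0.212), while wild-type libraries reached 16.6 to 19.4 CPM (difference -1.40, SE 0.354, adjusted p = 0.00297). MCM6 differed by -2.99 (SE 0.857, adjusted p = 0.0078), a call lost without dry mpk8 replicate 2 (-2.61). ORC6, of the origin recognition complex, fell from 1.10, 1.36 and 1.30 CPM to 0.416, 0.472 and 0.521 CPM, whereas the wild-type libraries rose to 2.27 to 2.82 CPM (difference -2.53, SE 0.418, adjusted p = 4.9e-05). The mpk8 fall of ORC6 was not called under library totals (-0.60, adjusted p = 0.108). CDT1A, a licensing factor without a pair in dry mpk8 seeds, was at least 12.54-fold higher at 24 h.

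Cell cycle genes gave 12 rises and 1 fall in 16 (median 1.48). CYCD3;1, a cyclin of the entry into the cycle, rose from 0.157, 0 and 0 CPM to 0.605, 0.515 and 0.710 CPM (log2 3.37, SE 0.753), and CYCD7;1, the fall, had no pair at 24 h and was at least 16.66-fold lower. CYCD1;1 and CDKB1;1 were not called in mpk8 (0.12, SE 0.47, and -0.33, SE 0.565) but rose in wild type, with differences of -3.62 (SE 0.691, adjusted p = 0.00023) and -3.84 (SE 0.895, adjusted p = 0.00156). In all 3 members with a called difference it was negative.

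Tubulins build the microtubules that guide wall synthesis in elongating cells. Of 15 genes 12 rose and 3 fell (median 1.81, against 3.48 in wild type). TUA6 was at 2.36, 1.74 and 1.63 CPM dry and 39.3, 45.1 and 53.0 CPM at 24 h (log2 4.58, SE 0.186, adjusted p = 1.3e-16). Wild-type libraries reached 256 to 315 CPM, so the difference was -2.73 (SE 0.378, adjusted p = 6.4e-06). TUB5, without a pair in dry mpk8 seeds, was at least 38.55-fold higher at 24 h, and TUB1 and TUB6 rose by 5.04 and 3.91. TUB7 went the other way, from 40.2, 36.9 and 37.6 CPM to 8.43, 9.19 and 9.28 CPM (log2 -2.09, SE 0.0927), where wild type rose slightly. For 11 tubulins the course was more negative than in wild type and for none more positive. Core histones gave 10 rises and 7 falls in 19, or 15 and 3 under library totals, and HTA13, a histone H2A, fell 25.2-fold from 46.1, 48.2 and 46.1 CPM to 1.93, 1.76 and 1.85 CPM (log2 -4.66, SE 0.103, difference -2.42, SE 0.141).

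Most cell wall loosening genes rose. Of 13 tested alpha-expansins, which let walls extend, 11 rose and 1 fell (median 4.41, against 5.73 in wild type). EXPA2, an expansin known from the endosperm of germinating seeds, had 0.0785, 0 and 0 CPM dry and 13.1, 18.4 and 19.9 CPM at 24 h (log2 9.0, SE 0.529, adjusted p = 1.6e-13). Imbibed wild-type libraries held 143 to 158 CPM, but the difference of courses (-1.55, SE 3.42) was not called, with dry levels near 0 in both genotypes. EXPA1, EXPA10 and EXPA9 rose by 5.85, 5.80 and 5.79. A called difference was found for 4 expansins, all negative.

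Xyloglucan endotransglucosylases cut and rejoin the wall polymer xyloglucan, and 13 of 19 tested rose and 3 fell. XTH15 had 0, 0.227 and 0.163 CPM dry and 43.1, 41.8 and 42.5 CPM at 24 h (log2 8.27, SE 0.205), and XTH19, without a pair in dry mpk8 seeds, was at least 113.2-fold higher. XTH25, abundant in dry seeds, fell from 7650, 8080 and 7920 CPM to 771, 680 and 688 CPM (log2 -3.47, SE 0.112). Its fall was smaller than in wild type (difference 1.18, SE 0.145, adjusted p = 1.4e-06), and that of TCH4, an enzyme known to respond to touch, was larger (log2 -3.23, difference -2.12, SE 0.36). Auxin transporters rose in 7 of 8 cases, LAX2 by 7.12 and PIN7 by 5.98, and PIN4 fell (-1.24, difference -1.89), a fall not called under library totals (-0.42).

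Dormancy in this species is set largely by DOG1, a protein made in maturing seeds. DOG1 was at 49.2, 49.4 and 50.7 CPM in dry mpk8 seeds and at 2.46, 2.49 and 1.80 CPM at 24 h. The groups were far apart, a 21.9-fold fall (log2 -4.45, SE 0.101, adjusted p = 2.6e-21). Imbibed wild-type libraries held 0.944 to 1.37 CPM, below every mpk8 one, and the difference was 0.89 (SE 0.182, adjusted p = 0.00046). Of 15 dormancy regulators 10 fell and 4 rose (median -0.51), but 10 rose and 4 fell under library totals, with 5 called in opposite directions. DOG1 and its relative AT4G18660 (log2 -2.73) fell and DAG2 and SUVH4 rose (3.55 and 4.61), also in log2. AT4G18650, another relative of DOG1 named after its values were seen, was at 31.7 to 36.9 CPM in all 6 mpk8 libraries (0.08, SE 0.0674, not called, but a called rise of 0.90 under library totals), while it fell in wild type (difference 1.19, SE 0.0975, adjusted p = 1e-08). For 11 regulators the course was more positive than in wild type and for none more negative, and under library totals for 6 and 0.

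ABA is made from carotenoids by a pathway whose committed step is catalysed by NCED enzymes, and 8 of its 10 genes fell and 2 rose (median -1.93). NCED6, known from the endosperm, fell from 2.98, 3.17 and 3.58 CPM to 0.870, 0.773 and 0.521 CPM (log2 -2.14, SE 0.273, adjusted p = 1.6e-07), less than in wild type (difference 1.19, SE 0.45, adjusted p = 0.0392). That call was lost without any 1 of 8 of the 12 libraries compared, with values of 0.92 to 1.21, and held without the 4 others. It was also lost under library totals (0.93, adjusted p = 0.12) and in the DESeq2 Wald test (1.17, adjusted p = 0.0555). NCED3 and NCED2 fell by 3.45 and 3.33, and ABA4, which makes neoxanthin, rose by 2.84. NCED5, which the naming rule would leave out, rose from 0.628, 0.529 and 0.814 CPM to 2.50, 2.23 and 2.37 CPM (log2 1.85, SE 0.303), and its difference from wild type was 1.53 (SE 0.451, adjusted p = 0.00944). In all, 5 genes of the pathway had a more positive course in mpk8 and none a more negative one, and under library totals 2 and none.

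CYP707A2, the ABA 8'-hydroxylase that removes ABA during imbibition, was at 27.0, 23.6 and 22.5 CPM dry and at 44.9, 49.2 and 45.9 CPM at 24 h. Every imbibed library was above every dry one, a 1.91-fold rise (log2 0.94, SE 0.0713, adjusted p = 2e-11). In wild type the gene began at 39.0 to 44.1 CPM and fell to 31.6 to 36.0 CPM (difference of courses 1.20, SE 0.10, adjusted p = 1.1e-08). On the TMM scale mpk8 was thus below wild type in dry seeds and above it at 24 h (log2 0.45, SE 0.0656). TMM factors at 24 h were 1.25 to 1.26 in mpk8 and 1.56 to 1.6 in wild type, so the size of the imbibed gap depends on the scaling. Under library totals CYP707A2 rose in both, by 1.76 in mpk8 and 0.82 in wild type, with a difference of 0.93. CYP707A3 was not called in mpk8 (-0.46, SE 0.26), except without dry mpk8 replicate 1 (-0.65), and rose in wild type (difference -2.16, SE 0.359, adjusted p = 5.1e-05), so the family members differed in sign.

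ABA receptors of the PYR/PYL family split, 6 higher and 4 lower of 12. PYL4 had 0.0785, 0 and 0.0814 CPM dry and 21.8, 25.0 and 26.0 CPM at 24 h (log2 8.67, SE 0.256), while PYL12 went from 12.8, 11.6 and 14.4 CPM to no pair, at least 305.2-fold lower. Both did the same in wild type. Of the clade A protein phosphatases, which block the pathway until ABA binds its receptors, 6 fell and 3 rose, with ABI2 and HAI1 falling by 3.64 and 3.25 and HAI3 rising by 1.62. Their courses were more positive than in wild type for 7 and more negative for 1, and under library totals for 3 and 1. ABI5, a bZIP factor that arrests growth, fell from 1260, 1230 and 1200 CPM to 200, 191 and 191 CPM (log2 -2.67, SE 0.067, adjusted p = 1.5e-20). Wild-type libraries stood at 109 to 122 CPM, and the difference was 0.63 (SE 0.0902, adjusted p = 1e-05). ABI4, another ABA factor, rose from 0.707, 0.755 and 1.14 CPM to 15.9, 16.8 and 19.9 CPM (log2 4.33, SE 0.181).

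Gibberellin promotes germination, and GA20-oxidases and GA3-oxidases make its active forms. Of 10 synthesis genes 7 rose and 3 fell, the 3 falls turning to rises under library totals. GA20OX3 was at 1.18, 1.51 and 1.38 CPM dry and 77.4, 73.2 and 68.3 CPM at 24 h, a 53.4-fold rise (log2 5.74, SE 0.145, adjusted p = 1.5e-20). Imbibed wild-type libraries held 48.6 to 53.1 CPM, less than any mpk8 one, and the difference was 1.57 (SE 0.27, adjusted p = 7.7e-05). The genes of the last step stayed low. GA3OX1 had 0.0785, 0 and 0 CPM and then 0.227, 0.644 and 0.473 CPM (log2 3.75, SE 0.937), where imbibed wild type held 2.71 to 4.0 CPM. GA3OX2 had no pair in dry seeds and 0.681, 0.644 and 0.710 CPM at 24 h, at least 8.651-fold higher, where imbibed wild type held 7.81 to 11.4 CPM. A difference of courses was not called for either, and dry levels were at or near 0 in both genotypes.

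Among receptors and DELLA repressors of gibberellin 6 rose and 2 fell of 8, or 7 and none under library totals. RGL2, the DELLA protein that holds back germination, rose 32.2-fold, from 5.97, 6.50 and 6.18 CPM to 199, 202 and 201 CPM (log2 5.01, SE 0.0863, adjusted p = 3e-23). The difference from wild type was not called (-0.13, SE 0.148, adjusted p = 0.525), but was under library totals (-0.40, adjusted p = 0.0336). RGA1 and GAI rose by 4.87 and 3.35. The receptor GID1A fell from 143, 144 and 139 CPM to 89.3, 81.9 and 85.2 CPM (log2 -0.73, SE 0.0687). It fell further in wild type, to 42.8 to 49.7 CPM (difference 0.97, SE 0.0986, adjusted p = 1.5e-07). Under library totals the mpk8 change of GID1A was not a fall.

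Light signalling genes gave 7 rises and 6 falls in 15, or 10 and 4 under library totals. The course was more positive than in wild type for 9 of them and more negative for 2, HY5 among the 2. Under library totals these counts were 4 and 3. HY5, a bZIP factor of light responses, fell from 15.0, 13.5 and 12.6 CPM to 0.983, 0.902 and 1.33 CPM (log2 -3.68, SE 0.23, adjusted p = 4.9e-13). It fell much less in wild type, to 4.80 to 7.12 CPM (difference -2.60, SE 0.304, adjusted p = 8.4e-07). PIL5, also known as PIF1, which represses germination in the dark, rose from 39.3, 39.9 and 37.8 CPM to 167, 171 and 174 CPM (log2 2.13, SE 0.0596), further than in wild type (difference 0.48, SE 0.0848, adjusted p = 0.00011), though under library totals this difference was 0.21 and not called (adjusted p = 0.0581). PIF4 and SPT rose by 4.24 and 3.13. Clock genes gave 4 rises and 6 falls in 15, or 10 and 3 under library totals, with RVE1 and ELF4 falling by 3.41 and 3.39. For 9 clock genes the course was more positive than in wild type and for none more negative, and under library totals for 4 and 1. NRT2.7, the nitrate transporter of the seed vacuole, fell 22.5-fold from 715, 773 and 741 CPM to 31.2, 33.9 and 33.9 CPM (log2 -4.49, SE 0.0704), further than in wild type (difference -0.89, SE 0.0896, adjusted p = 1.3e-07). Of the 9 tested nitrate genes 4 had a more positive and 2 a more negative course than in wild type, or 1 and 2 under library totals.

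The list of MAP kinases, the family of MPK8, also holds the MAP kinase kinases (MKK). It was mixed, with 7 rises and 12 falls in 23 tested (median -0.22), and 17 rises and 4 falls under library totals. MPK12 and MPK15 fell by 3.33 and 2.48, and MKK6 and MPK2 rose by 3.57 and 2.71. MPK2 went from 1.81, 1.89 and 1.63 CPM to 11.9, 11.4 and 11.6 CPM. TCP factors, the family of the protein after which the third line of the series is labelled, rose in 13 of 17 cases and fell in 3 (median 1.14, and 1.96 under library totals). TCP14 rose from 7.07, 7.63 and 6.59 CPM to 14.8, 15.8 and 16.4 CPM (log2 1.14, SE 0.114), and its difference from wild type was not called (-0.06, SE 0.17, adjusted p = 0.828).

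Photosynthesis genes of the nucleus gave 15 rises and 11 falls in 42 (median 0.44, against 1.22 in wild type), and 27 rises and 5 falls under library totals (median 1.26). RBCS2B and RBCS3B, of the small Rubisco subunit, rose by 5.31 and 4.02, and LHCB5, an antenna protein, fell from 10.1, 11.6 and 9.60 CPM to 0.945, 1.07 and 1.28 CPM (log2 -3.26, SE 0.273). The course was more negative than in wild type for 15 and more positive for 1. Wild-type leaf marker sums at 24 h were 367 to 443 CPM, beside the 103 to 116 CPM of mpk8. Imbibed libraries of the line labelled tcp14 held 177 to 230 CPM, so a sum below wild type was not particular to mpk8. Most leaf markers, RBCS2B and RBCS3B among them, are also members of this photosynthesis list. The sums are thus not separate information, and the part of leaf-type cells in these differences was not tested.

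Pollen transcripts were in every dry library. The 16 pollen markers summed to 132 to 137 CPM in dry mpk8 seeds and to 8.85 to 9.61 CPM at 24 h, beside 193 to 211 and 8.13 to 9.08 CPM in wild type. All 13 tested markers fell (median -7.27). VGDH1, a pectin methylesterase of pollen tubes, was at 15.5, 15.8 and 14.2 CPM in dry seeds and had no pair at 24 h, at least 357.6-fold lower. AGP6 and AGP11, arabinogalactan proteins of pollen, fell less than in wild type (differences 2.52, SE 0.441, and 1.73, SE 0.405). Of the 10 genes with the largest decreases, 5 are on the pollen list (VGDH1, RALFL9, RALFL8, VGD1 and PGA4). The part of pollen on the seed surface in the course was not tested.

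The other 5 of the largest decreases were PYL12, sks14, LTP4, ACA3 and DAF1. All had no pair at 24 h, with bounds from 163-fold for DAF1 to 305.2-fold for PYL12. LTP4, a lipid transfer protein, was uneven in dry seeds, at 7.38, 16.4 and 1.22 CPM. The largest increases were led by JAL34, a lectin of the jacalin group (at least 146.1-fold), AGP31 (log2 10.55, SE 0.32) and ABCG35, a membrane pump (at least 116.1-fold). AGP31 went from 0.0785, 0 and 0 CPM to 42.1, 54.8 and 53.6 CPM. PYK10, a myrosinase of endoplasmic reticulum bodies, went from 0.314, 0.0755 and 0.163 CPM to 57.3, 61.9 and 102 CPM (log2 8.60, SE 0.436), where imbibed wild type held 569 to 682 CPM. PMEPCRA, GLL22 and UMAMIT30 rose by 8.67, 8.40 and 8.29, and XTH19, EXPA2 and PYL4 complete the 10. AGP31, EXPA2, PMEPCRA, GLL22 and UMAMIT30 had 1 pair each over the 3 dry mpk8 libraries, and PYL4 had 2. The sizes of these rises are thus not fixed well, and their SE do not measure that uncertainty.

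Most of the mpk8 course was also that of wild type. In wild type 86.1% of the tested genes were called in the course, 46% higher and 40.1% lower at 24 h. Genes higher in both courses numbered 7024, which is 87.6% of the mpk8 and 84.6% of the wild-type rises, and genes lower in both numbered 6313, 90.3% and 87.1% of the falls. Across the 18061 genes the fold changes correlated with r = 0.916 and rho = 0.925, a description in which genes share libraries. Where both fell and the difference was called, the fall was smaller in mpk8 for 2634 genes and larger for 486. Where both rose, the rise was smaller for 1273 and larger for 677. Under library totals the falls were split 752 to 341 and the rises 3217 to 481, so smaller changes in mpk8 outnumbered larger ones on either scale, while which side held most of them depended on the scaling.

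**Figure D3:**
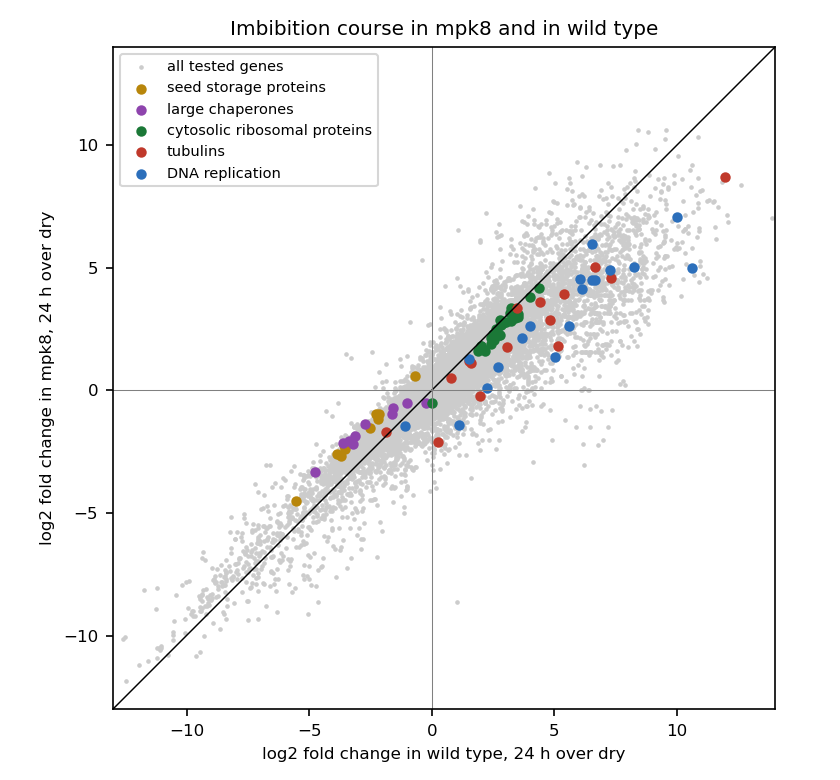
Log2 fold change from dry to 24 h in wild type (x axis) and mpk8 (y axis) for 18061 genes in grey and 5 lists in colour, with the line of equality in black. The 10 storage genes and 9 of the 10 large chaperones lie above the line (median differences 1.19 and 1.15), and tubulins and DNA replication genes mostly below it (medians 1.81 against 3.48 and 3.38 against 5.82).

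Of the genes with the most positive difference, HAT2, an auxin-induced homeodomain factor, rose further in mpk8, from 0.0785, 0 and 0.163 CPM to 12.7, 13.1 and 14.3 CPM (difference 2.50, SE 0.789, adjusted p = 0.0148). Without dry wild-type replicate 2, dry wild-type replicate 3 or dry mpk8 replicate 2 its difference was 2.30, 2.15 or 1.93 and no longer called. The others fell less than in wild type. PIF7, a factor of shade responses, went from 13.2, 12.3 and 10.5 CPM to 1.06, 0.859 and 1.33 CPM (difference 1.76, SE 0.338), and WOX2, an embryo patterning factor, from 28.7, 30.4 and 31.7 CPM to 8.96, 8.80 and 7.91 CPM (difference 1.70, SE 0.146). PMT6, a sugar transporter, fell by 0.27 in mpk8 but rose under library totals (difference 1.73, SE 0.151). scpl39, a carboxypeptidase-like protein, CYP71B3, a cytochrome P450, and the pollen genes AGP6 and AGP11 complete the 8, with differences of 1.82, 1.80, 2.52 and 1.73. The call of scpl39 was lost without any 1 of 10 libraries (1.20 to 1.94), and also with DESeq2 size factors (1.78), library totals (1.62), the DESeq2 Wald test (1.96) and the replicate block (1.78). The small fall of PMT6 within mpk8 was not called without imbibed mpk8 replicate 2 (-0.24) or dry mpk8 replicate 3 (-0.23).

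The most negative differences were of genes near 0 in dry seeds that reached a far lower imbibed level in mpk8. PDLP3, of plasmodesmata, went from 0.157, 0 and 0.0814 CPM to 1.70, 1.85 and 1.85 CPM, and in wild type from no pair to 12.1 to 15.8 CPM (difference -6.53, SE 1.87, adjusted p = 0.00853). GUS3, NSH3 and HEXO3, of glucuronide, nucleoside and hexosamine breakdown, differed by -5.90, -5.88 and -5.48. MSRB9, a methionine sulfoxide reductase, stood at 1.89, 1.98 and 2.08 CPM at 24 h, against 32.9 to 35.9 CPM in wild type (difference -4.73, SE 1.63, adjusted p = 0.0244). CYP81F2 and UGT72E2 differed by -4.77 and -4.46. Without dry mpk8 replicate 1 the differences of PDLP3, GUS3, NSH3, HEXO3, MSRB9, CYP81F2 and UGT72E2 were -5.66, -4.56, -5.54, -5.48, -4.37, -4.63 and -4.46, and none of the 7 was called. Leaving out dry mpk8 replicate 2 or 3 or a dry wild-type replicate also ended the call for some of them (UGT72E2 -3.60 to -3.94, HEXO3 -4.62 to -5.04, MSRB9 -4.17 to -4.40, CYP81F2 -4.21 to -4.61, NSH3 -5.56). ATBETAFRUCT4, the other member of the 8, is described with the opposite courses. Dry pairs of these genes were few, and the imbibed levels are the firmer values.

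Some genes were called in opposite directions. There were 162 that rose in mpk8 and fell in wild type and 190 that fell in mpk8 and rose in wild type, and the difference was called in all of them. The directions depended on the scaling. Under library totals none of the 162 and 20 of the 190 were still opposite, and under DESeq2 size factors 116 and 190 were. With the largest differences of the first kind were MEE65, CRA1, ATL15, OBP4, CYP707A2 and BRU6. MEE65, named for maternal effect embryo arrest, rose from 5.42, 6.50 and 6.18 CPM to 9.83, 7.86 and 9.80 CPM (log2 0.60, SE 0.15) and fell by 1.02 in wild type (difference 1.63, SE 0.221, adjusted p = 5e-06). All rises of this kind among the 6 were under 2-fold, from 0.22 for BRU6, an auxin-conjugating enzyme, to 0.94 for CYP707A2 in log2. The rise of OBP4 was no longer called without imbibed mpk8 replicate 1 (0.22) or 2 (0.25) or dry mpk8 replicate 1 (0.22) or 3 (0.21), nor with DESeq2 size factors (0.24), the DESeq2 Wald test (0.24) or single reads (0.25). That of BRU6 was not called without imbibed mpk8 replicate 1 (0.17) or dry mpk8 replicate 2 (0.20). Under library totals their wild-type changes were 0.06 to 0.82, none below 0, and their differences were 0.91 to 1.36.

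Of the second kind, ATBETAFRUCT4, a vacuolar invertase that splits sucrose, fell from 1.10, 0.680 and 1.06 CPM to 0.265, 0.129 and 0.284 CPM (log2 -2.03, SE 0.544), while in wild type it rose to a mean of 9.13 CPM (difference -4.78, SE 0.636, adjusted p = 3.9e-06). MES10, a methylesterase, fell from 7.07, 7.10 and 6.83 CPM to 0.907, 0.730 and 1.75 CPM, against a wild-type rise to 14.3 to 16.2 CPM (difference -3.78, SE 0.273, adjusted p = 1.7e-09). RD21A, a cysteine protease of the vacuole, went from 23.0, 29.7 and 17.6 CPM to 4.01, 4.55 and 5.82 CPM (difference -3.24, SE 0.302). In none of these do the mpk8 groups overlap. MAPKKK19, a kinase of the MAP kinase kinase kinase class, fell from 10.8, 9.67 and 11.6 CPM to 1.36, 1.72 and 2.27 CPM (difference -3.11, SE 0.231). BGAL8, a beta-galactosidase, fell from 17.7, 18.4 and 20.1 CPM to 8.28, 8.37 and 12 CPM (difference -2.57, SE 0.211), and TUB7 is described above (difference -2.36, SE 0.126). MES10, RD21A, MAPKKK19 and TUB7 were opposite under library totals too, and ATBETAFRUCT4 and BGAL8 were then no longer called in mpk8.

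**Figure D4:**
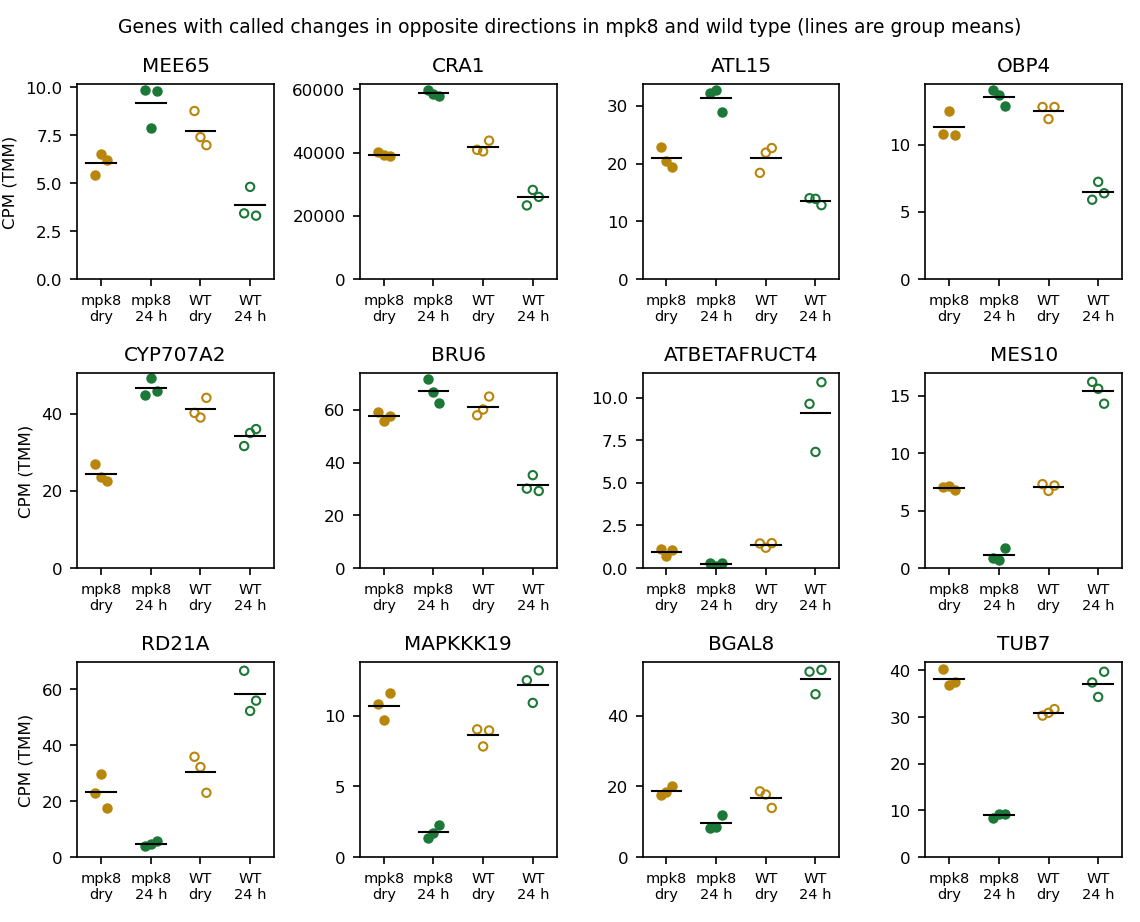
Normalised level (CPM after TMM, linear axis from 0) in every library for the 6 genes with the largest difference among those higher in mpk8 and lower in wild type at 24 h and the 6 of the reverse kind, mpk8 as filled and wild type as open points, with group means as lines. In the MES10 panel imbibed wild type stands at 14.3 to 16.2 CPM and imbibed mpk8 at 0.730 to 1.75 CPM, while the wild-type falls of the first 6 genes are not seen under library totals.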

How the data were processed

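RNA-seq counts of 18 Arabidopsis seed libraries were analysed. Per the labels' protocols, polyadenylated RNA was made into stranded paired-end libraries, and per the submitters' processing notes TopHat2, Bowtie2 and TAIR10 were used, without versions. The authors deposited, per the file headers, a raw count of read pairs for each transcript model, taken from properly paired reads only, with singletons treated as unmapped and pairs with several equal hits removed. The headers describe pairs on reversed strands and do not say how overlapping or antisense genes were handled. Symbols came from RefSeq's table of TAIR10.1 and promoters from that genome by its own annotation, and no position was converted between builds.

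Counts were fitted with the quasi-likelihood test of edgeR 4.0.16 (limma 3.58.1, R 4.3.3), with TMM scaling, filterByExpr over the 6 groups of 3 libraries, 1 mean per group and all 18 libraries in the fit. Adjusted p values are Benjamini-Hochberg over 18061 genes, with a threshold of 0.05. Each SE is the ratio of the log2 fold change to the root of its F statistic. SE cover the spread of libraries only, and are approximate for genes near 0. For genes with only a few pairs in a group, they are not to be read as the precision of the fold. Bounds for a group with no pair assume 3 pairs in its libraries together and cover counting error only. Counted pairs per library ran from 12170793 to 21087747 in the groups used.

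The members and gene lists were chosen with earlier results of these data known. Lists have no test of their own and are described by counts and medians. Genes were named by rule, as the 10 largest rises and falls, up to 4 called members of a list with the largest changes and exceptions to its direction, the 8 most positive and most negative differences and the 6 largest opposite courses of each kind, with at least 5 CPM and a symbol. MPK8, TCP14, DOG1, ABI5, RGL2, CYP707A2 and GA3OX1 were always named, as were the genes with the most pairs, and further list members were named after their values were seen. Alternatives were DESeq2 1.42.0 size factors and Wald test, library totals, no filter, a 2-fold minimum, single reads, a fit of only the groups compared, the replicate number as a block, and leaving out 1 library in turn. The fit was also run on simulated counts in which nearly all genes were unchanged. Most genes were called in the real course, so the simulation could not check the scaling.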

Additional observations from a re-analysis of the deposited data

Results flagged for a closer look

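The test of the difference itself, the mpk8 course minus the wild-type course, was called for 7052 genes, and the named genes among them are given here with their differences of log2 fold changes. More positive in mpk8 were, of the dry seed store, CRA1 (1.27), HSP101 (1.46), HSP17.4 (1.51), HSFA9 (1.14), XTH25 (1.18) and GolS2 (1.24). STS (1.29), NAP57 (0.69) and HAT2 (2.50) rose further than in wild type. Of dormancy, ABA, gibberellin and light genes, DOG1 (0.89), AT4G18650 (1.19), ABI5 (0.63), NCED6 (1.19), NCED5 (1.53), CYP707A2 (1.20), GA20OX3 (1.57), GID1A (0.97) and PIL5 (0.48) had the more positive course. The same held for AGP6 (2.52), AGP11 (1.73), scpl39 (1.82), CYP71B3 (1.80), PIF7 (1.76), PMT6 (1.73), WOX2 (1.70) and MEE65 (1.63).

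More negative in mpk8 were TUA6 (-2.73), TUB7 (-2.36), HTA13 (-2.42), PCNA2 (-1.40), MCM6 (-2.99), ORC6 (-2.53), CYCD1;1 (-3.62), CDKB1;1 (-3.84), TCH4 (-2.12) and PIN4 (-1.89). So was NOP56 (-0.37), the 1 ribosome assembly factor of 13 with a more negative course, while 6 had a more positive one. SAG21 (-0.70), HSFA3 (-2.95), CSY2 (-1.30), HY5 (-2.60), NRT2.7 (-0.89), CYP707A3 (-2.16), FLA11 (-3.61), JAZ10 (-1.40) and SIP1 (-2.78) also had the more negative course. Negative differences were called for ATBETAFRUCT4 (-4.78), MES10 (-3.78), RD21A (-3.24), MAPKKK19 (-3.11) and BGAL8 (-2.57). The sizes of PDLP3 (-6.53), GUS3 (-5.90), NSH3 (-5.88), HEXO3 (-5.48), CYP81F2 (-4.77), MSRB9 (-4.73), UGT72E2 (-4.46) and HSP18.2 (-9.67) rest on few pairs in at least 1 group. Library totals lower each difference by about 0.27.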

How the results depend on the processing

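The count of genes called in the mpk8 course was 15017, and 14655 to 15804 under other scalings, tests, filters, counting units and fits. It was 14475 to 14675 with 1 of the 6 libraries left out, and 8913 with a 2-fold minimum. For the difference of courses the count was 7052, 6217 to 7447 under the same alternatives, 6334 to 6997 with 1 of the 12 libraries left out, and 1518 with a 2-fold minimum, 359 of them more positive and 1159 more negative in mpk8. Similar counts did not mean the same genes. Under library totals only 4359 of the 7052 differences were still called, and 13360 of the 15017 genes of the course, in either direction. The replicate numbers were not used as pairs. Same-numbered dry and imbibed mpk8 libraries deviated together by correlations of 0.18, -0.07 and 0.03, and differently numbered ones by -0.19 to 0.17. With 3 libraries per group these values cannot exclude pairing. The replicate block, fitted to only the libraries compared, gave 15119 calls in the course and 7447 in the difference. The same libraries without the block gave 15090 and 7215. Of the 177 genes named, 158 kept direction and side of the threshold in the course under every alternative other than the 2-fold minimum, as did 48 of 62 differences. Library totals reversed the direction of SAG24 (0.32), GID1A (0.09), ROF1 (0.31), CLPB3 (0.31) and PMT6 (0.55) in the course, by the construction of the scaling, which shifts all genes by 0.82. Without WT 24 h replicate 1 the difference of HSP18.2 was -4.53 and not called. Depth limits genes with few dry pairs, for which neither the fold nor the difference of courses is fixed well.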

Other observations

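Seeds store raffinose family sugars, and the 7 tested genes of their metabolism were split, 3 higher and 4 lower at 24 h. GolS2, of the first step, fell from 795, 748 and 738 CPM to 80.2, 72.7 and 71.9 CPM (log2 -3.34, SE 0.0861). STS, stachyose synthase, rose from 21.0, 19.4 and 17.8 CPM to 105, 93.0 and 97.2 CPM (log2 2.34, SE 0.0904). Imbibed wild-type libraries held 40.9 to 45.4 CPM of STS, so the rise was larger in mpk8 (difference 1.29, SE 0.132, adjusted p = 1.5e-07 by the edgeR test). SIP1 (AT5G40390), of raffinose synthesis, fell in mpk8 (-2.28, SE 0.407) and was not called in wild type (difference -2.78, SE 0.516). Antioxidant enzymes were split, 10 higher and 11 lower of 21, or 11 and 9 under library totals, with falls of GPX4 and GPX7, glutathione peroxidases, by 4.96 and 3.21 and of CAT1, a catalase, by 2.94 on the log2 scale. APX1, ascorbate peroxidase, rose by 2.03 (SE 0.3). Over all genes tested 44.4% rose and 38.7% fell.

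Of 20 aquaporins, water channels, 9 rose and 8 fell, or 12 and 5 under library totals. NLM1, without a pair in dry mpk8 seeds, was at least 18.72-fold higher at 24 h, and PIP2;8 at least 13.01-fold. TIP3;1, the channel of the seed storage vacuole, fell from 4580, 5180 and 4960 CPM to 1440, 1540 and 1470 CPM (log2 -1.73, SE 0.111). Arabinogalactan and fasciclin-like proteins of the wall gave 19 rises and 11 falls in 35, and FLA11 fell (log2 -2.98, difference -3.61, SE 0.498) while its wild-type change was not called. JAZ repressors of jasmonate responses fell in 8 of 11 cases and rose in 2, with 6 falls and 4 rises under library totals, and JAZ10 fell by 2.80 (difference -1.40, SE 0.269). Of 12 Dicers and Argonautes, which make and use small RNA, 9 rose and none fell, AGO7 by 4.33 and DCL1 by 1.23. The ethylene gene ACO1 (AT2G19590), without a pair in dry seeds, was at least 18.65-fold higher at 24 h, and ACS6 fell by 5.37. F3H and TT5, of flavonoid synthesis, fell by 3.96 and 3.14. Translation initiation factors rose in 16 of 24 cases and fell in 3, with EIF4A1 rising by 1.80 and EIF4A-III falling by 1.19.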
